A study of Mus musculus with 12 samples.

Results

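HP3, a Rex1-/- mouse ES cell line, was compared with the wild-type ES cell line EB5 on 6 of the 12 arrays of the study, 3 for each line, over every probe of a gene. Each array carried Cy3-labelled RNA of the line and Cy5-labelled universal mouse reference RNA, with no dye swap, so that a value is the log2 ratio of the line to the reference. All lines were grown without feeder cells in medium with LIF, and the study obtained its mutants from E14tg2a and its derivatives. In the mutant allele a puromycin resistance and EGFP cassette flanked by loxP sites stands in place of part of Rex1, and selection of Rex1+/- cells in a high concentration of puromycin gave Rex1-/- lines. RKPG9 (Rex1+/-), the line put through that selection, and HP4, another Rex1-/- line, gave 3 arrays each, and their values are set beside those of HP3 where they bear on a gene. EB5 is the wild-type line of the study. Each line is a single clone, and nothing in the labels tells whether its 3 arrays came from separate cultures, so that p-values reflect array-to-array spread only, possibly a technical one. The 3 EB5 arrays were read by the image software with other settings than the 9 arrays of the other lines. A global background adjustment was switched on, and the minimum population for flagging outliers was 15 instead of 10. This session held EB5 only, so that session and genotype cannot be told apart in any difference between HP3 and EB5, whereas HP3, RKPG9 and HP4 were read in one session.

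Rex1 is a zinc finger protein of the YY1 family, encoded by Zfp42, and its mRNA has long served as a marker of undifferentiated ES cells. ES cells keep pluripotency through a network of transcription factors such as Oct3/4 (Pou5f1) and Nanog, with LIF acting through Stat3. Cultures of ES cells also hold some cells that have moved towards other fates, such as epiblast-like, endoderm-like or flattened epithelial-like cells, whose genes include keratins, annexins and actin-binding proteins.

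At Zfp42, the targeted gene, probe A_65_P04537 read 5.98, 5.98 and 5.99 on the EB5 arrays and 6.11, 5.94 and 5.91 on the HP3 arrays. The lines overlapped, with a log2 difference of 0.01 ± 0.09 (SE, n = 3 arrays per line, adjusted p = 0.96), and the other probe, A_65_P04151, differed by -0.05 ± 0.08 (adjusted p = 0.70). Where these probes lie relative to the replaced sequence is not known here, so they do not check the genotype. On blots the study found neither wild-type Rex1 mRNA nor Rex1 protein in Rex1-/- cells, which made larger transcripts of truncated Rex1 and the cassette. Whether the probes read those transcripts was not tested. The reading also moved with the processing, to -0.32 without background subtraction and -0.63 from the Cy3 channel alone, and both of those values passed the test.

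Of 20235 probes tested, 44 passed both thresholds of the study, which ask for over 2-fold and for an adjusted p below 0.05. HP3 was higher at 7 of them (0.0346%) and lower at 37 (0.183%), so that 15.9% of the calls were higher. The usable arrays of the lines were apart at all 44, against 46.3% of all probes. The calls were made on these same arrays, so that being apart nearly follows from the thresholds and adds no support. Symbols were known for 34 of these probes, in 3 genes that rose and 29 genes that fell, and 10 had none. The split depended on the processing. With a normexp offset of 0 there were 99 higher and 182 lower (35.2% higher). Processed signals of the image software gave 153 higher and 460 lower, and the authors' table of levels 323 and 301 (51.8% higher). Those signals and that table follow the image software, whose global background adjustment was on for the EB5 arrays only. What moved the split between these settings was not tested. The count of 7 became 13 without HP3 replicate 1 and 11 without EB5 replicate 1. At an adjusted p under 0.05 alone, 2293 probes were higher and 3920 lower.

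Of the 37 probes that fell, HP3 also lay below RKPG9 at 18, above it at 6 and showed no call against it at 13. Of the 7 that rose, HP3 lay above RKPG9 at 4 and showed no call at 3. For scale, 12.7% of all probes were higher and 10.1% lower in HP3 than in RKPG9. Against HP4, HP3 was higher at 12 of the 44 probes, lower at 16 and uncalled at 16, and over all probes 14.7% were higher and 13.9% lower. These comparisons share the HP3 arrays, so that they are given side by side only.

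**Figure D1:**
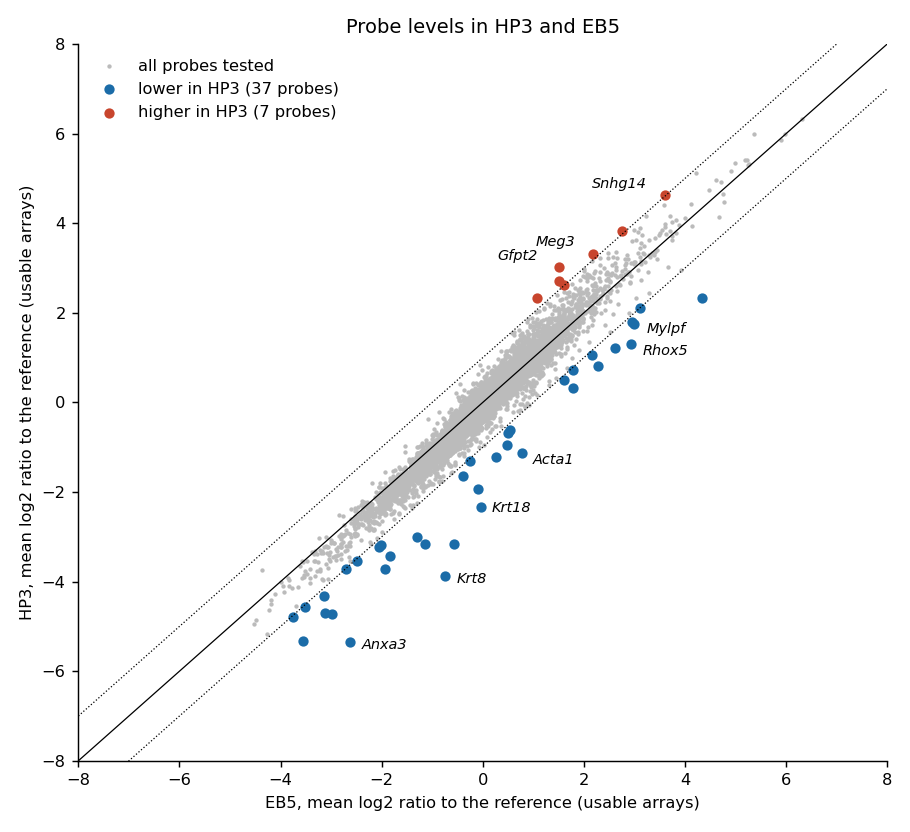
Mean log2 ratio to the reference of each tested probe in EB5 (horizontal axis) and HP3 (vertical axis), over the usable arrays of each line. Grey points are all tested probes and coloured points the 37 probes that were lower and the 7 that were higher in HP3, with Krt8, Anxa3 and Krt18 farthest below the diagonal.

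Keratins of simple epithelium were among the genes that fell. Krt8, the gene with the largest fitted fall of all named genes, which pairs with keratin 18 in the first epithelial filaments of the embryo, read -0.71 and -0.77 on the usable EB5 arrays and -3.84, -3.95 and -3.84 on the HP3 arrays. Its log2 difference was -3.14 ± 0.05 (SE, adjusted p = 7.4e-11). RKPG9, at -3.42 on average, lay nearer to HP3 than to EB5. Krt18, its partner, read -0.57, -0.48 and -0.62 in EB5 and -3.10, -3.13 and -3.24 in HP3, a difference of -2.60 ± 0.06 (adjusted p = 3e-10), and its other probe fell by 2.29 on the log2 scale. The type II keratin Krt7 fell by 1.25, from between -0.41 and -0.33 to between -1.68 and -1.58. Both Krt18 and Krt7 were close to RKPG9, with HP3 minus RKPG9 differences of -0.08 and -0.05 that did not pass the test.

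Krt19 was the keratin whose probes disagreed. Probe A_65_P15933 read -0.11, -0.10 and -0.09 in EB5 and -1.88, -2.04 and -1.90 in HP3 (log2 difference -1.84 ± 0.05, adjusted p = 1.3e-09), although only 1 of 3 HP3 spots was well above background. The brightest Krt19 probe, A_65_P04150, was higher in HP3 by 0.22 ± 0.06 (adjusted p = 0.017), a call lost without EB5 replicate 1, HP3 replicate 1 or HP3 replicate 3. The third differed by 0.03 (adjusted p = 0.77).

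Among 22 measured genes for keratins and epithelial junctions, 12 fell and 3 rose, with a median log2 difference of -0.17. Krt19, whose probes disagreed, counted as a rise through its brightest probe. Over all 7107 named genes, each by its brightest probe, 32.7% fell and 11.1% rose, with a median of -0.06. Junction genes in the group included Perp, a desmosome protein that p53 induces, which read 0.51, 0.52 and 0.56 in EB5 and -0.60, -0.64 and -0.58 in HP3. Perp fell by 1.13 ± 0.03 (SE, adjusted p = 1.3e-09). The desmosome plaque gene Dsp fell by 0.93, whereas Cdh3, which encodes P-cadherin, rose by 0.44.

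**Figure D2:**
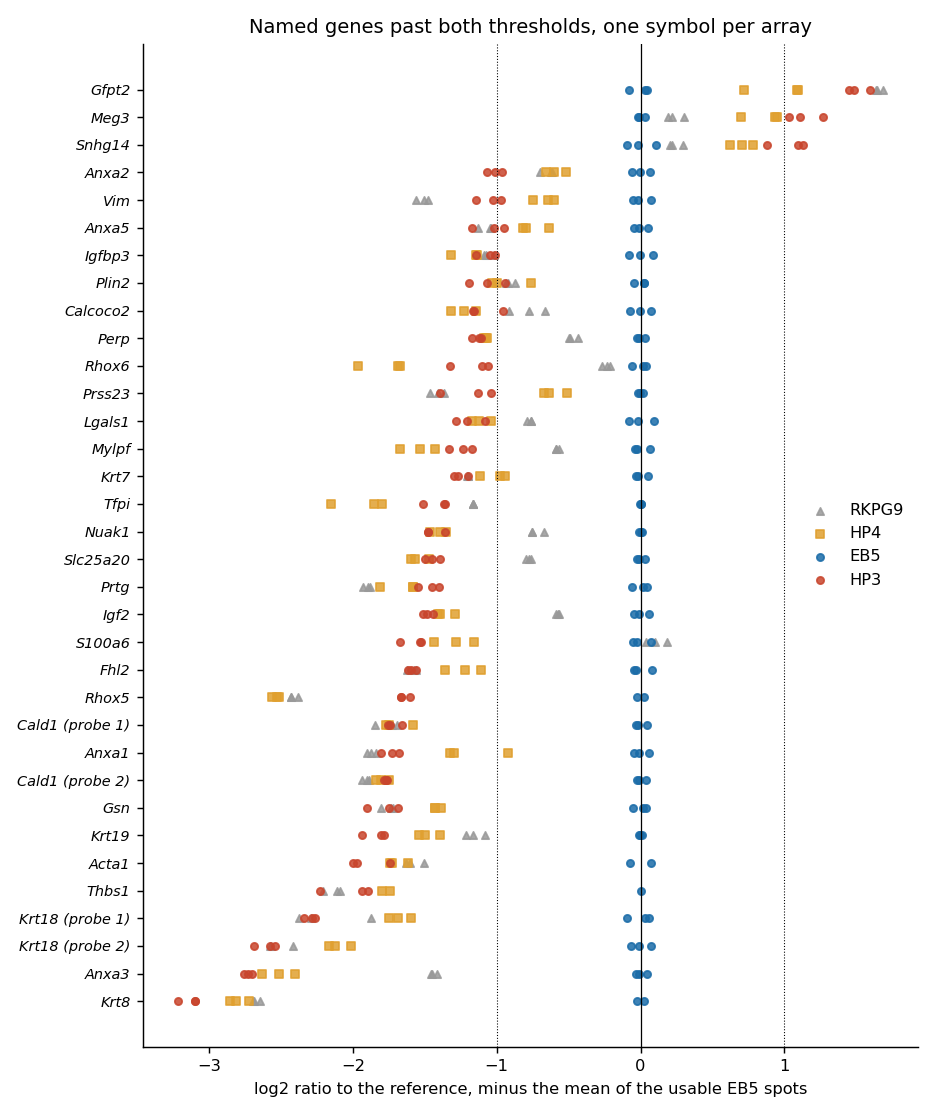
Log2 ratio to the reference on each array, minus the mean of the usable EB5 spots, for the named genes with a probe past both thresholds. Circles in blue are EB5 and in red HP3, triangles RKPG9 and squares HP4, and dotted lines mark 2-fold. HP3 symbols lie beside those of RKPG9 for genes such as Krt18, Gsn and Gfpt2, and away from them for S100a6 and Anxa3.

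Actin and its binding proteins formed the group with the highest share of lower genes among those with more than 20 measured members. The list was written with earlier results of these data known, so that this rank is no independent support. Of 33 measured genes 27 fell (81.8%, beside 32.7% of all named genes), 6 of them by more than 2-fold, 1 rose and another 5 missed the threshold. The median log2 difference was -0.39, and across the alternative ways of processing given below between 20 and 29 members were lower, with a negative median each time. Acta1, the skeletal muscle actin, read 0.69 and 0.84 on the usable EB5 arrays and -0.97, -1.23 and -1.20 on the HP3 arrays, a fall of 1.90 ± 0.08 (adjusted p = 9.5e-08). Gsn, which encodes the actin-severing protein gelsolin, read -3.54, -3.52 and -3.61 in EB5 and -5.30, -5.24 and -5.45 in HP3 and fell by 1.78 ± 0.05 (adjusted p = 1.5e-09). In both genes every HP3 array lay below every usable EB5 array, which the rule for naming called genes required.

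Cald1, the gene of the actin and myosin binding protein caldesmon, went from -1.96, -1.90 and -1.95 to -3.70, -3.72 and -3.71, a fall of 1.77 ± 0.03 (adjusted p = 5.3e-11). A further Cald1 probe fell by 1.72 and the remaining one differed by -0.01 (adjusted p = 0.95). Fhl2, a LIM-domain co-factor of actin-responsive transcription, read -1.89, -1.76 and -1.87 in EB5 and -3.40, -3.44 and -3.46 in HP3 (log2 difference -1.59, adjusted p = 9.6e-09). The fast-muscle myosin light chain Mylpf read 3.06, 2.97 and 2.95 in EB5 and 1.66, 1.82 and 1.76 in HP3, a fall of 1.25 ± 0.06 (adjusted p = 8.5e-08). These 3 genes were apart on all arrays, again by the rule that named them.

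Vim, which encodes the intermediate filament vimentin, fell by 1.04 (adjusted p = 1.7e-07), with saturated reference spots, and by 1.00 without HP3 replicate 3, which is at the fold threshold. Below 2-fold stood Acta2, the smooth muscle actin (-0.96), Flnc, an actin cross-linker (-0.86), and Myh9, a non-muscle myosin (-0.53), each of which fell. Vil1, which encodes the microvillus protein villin, was the member that rose (0.37, adjusted p = 0.00054). Against RKPG9 the same list had 10 members higher and 6 lower in HP3, beside 18.2% and 15.9% of all named genes. Acta1 was 0.32 lower in HP3 than in RKPG9, Gsn, Fhl2 and Acta2 did not pass, and Cald1 was 0.14 higher. Acta1 lies on chromosome 8, where the median of 350 genes was also 0.29 lower in HP3 than in RKPG9, and its call against RKPG9 was lost from unsubtracted signals (-0.10, adjusted p = 0.13) and from the Cy3 channel alone (-0.30, adjusted p = 0.065).

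**Figure D3:**
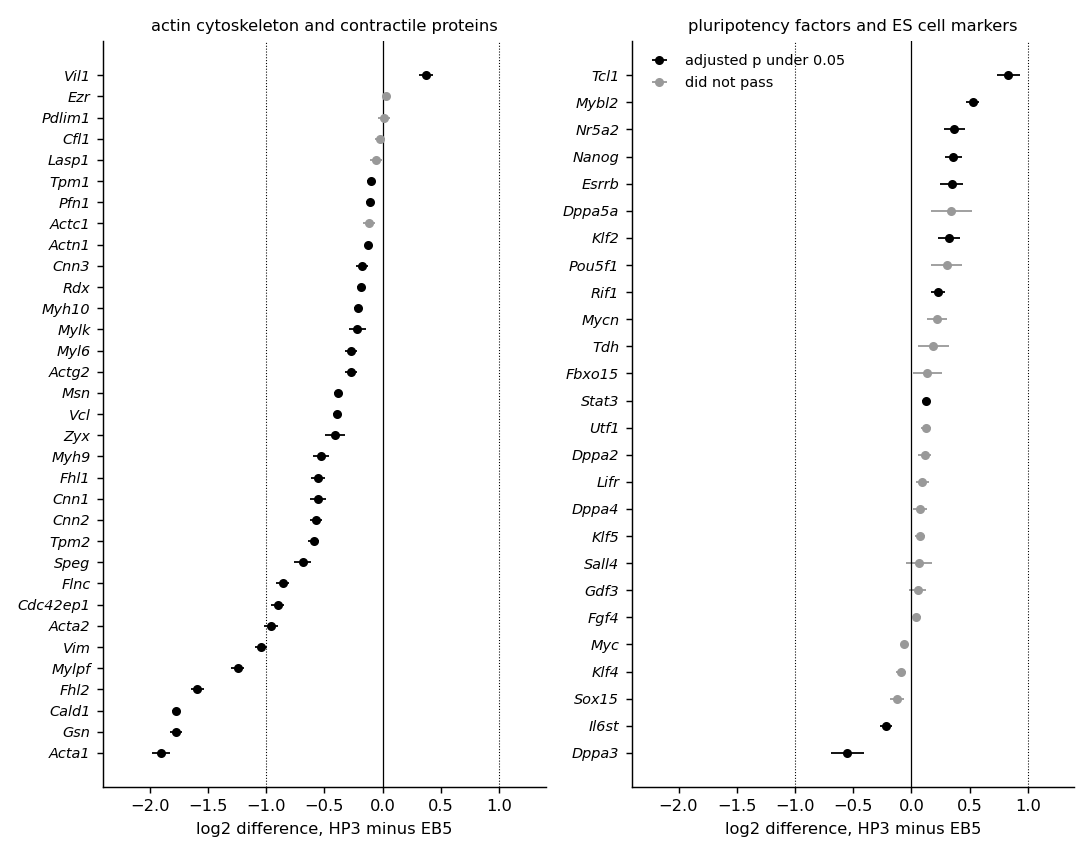
Log2 difference of HP3 minus EB5 for each measured member of 2 gene lists, actin cytoskeleton on the left and pluripotency on the right. Points are the fitted differences with their standard errors, black where the adjusted p was under 0.05, and dotted lines mark 2-fold. Actin genes spread from 0.37 for Vil1 down to -1.90 for Acta1, and the pluripotency genes from 0.83 for Tcl1 to -0.55 for Dppa3.

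Sequence around the start site was looked at for the genes that fell, because many belong to the actin group. The best-known promoter element of that group is the CArG box bound by serum response factor, chosen here after the falls were seen. RefSeq promoters (GRCm38.p6, 250 bases before to 50 after the start) were found for 22 of the 29 genes, 36 promoters in all. A CArG box, on either strand, was in 5 of the 36 (13.9%), in 1.63% of all 32851 promoters and in 1.35% of the 7012 promoters of genes named on the array. It lay in promoters of Acta1, Fhl2, Anxa5 and Igf2, where Fhl2 gave 2 of the 5 and the Anxa5 box began 25 bases after the start. Among the 4 promoters of the genes that rose, that of Meg3 held a CArG box and that of Gfpt2 the AP-1 motif TGANTCA. For the genes that fell, the AP-1 motif was in 4 of 36 (11.1%, against 7.81% of all and 5.60% of those on the array). The YY1 motif AAGATGGC and the GLI motif TGGGTGGTC were in 0 of 36, against 2.75% and 0.253% of all and 4.15% and 0.143% of those on the array. The matched stretches before the start are shown for Acta1, for 2 start sites of Fhl2 and for Igf2, each 80 bases on the minus strand with the CArG box in capitals, at chr8:123894804-123894883, chr1:43163962-43164041, chr1:43196813-43196892 and chr7:142661382-142661461.
Acta1: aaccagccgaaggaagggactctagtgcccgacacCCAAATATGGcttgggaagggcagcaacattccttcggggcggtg
Fhl2, first start site: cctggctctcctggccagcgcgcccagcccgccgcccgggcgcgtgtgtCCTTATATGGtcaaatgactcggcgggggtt
Fhl2, other start site: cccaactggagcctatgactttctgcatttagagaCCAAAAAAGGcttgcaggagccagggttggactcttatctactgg
Igf2: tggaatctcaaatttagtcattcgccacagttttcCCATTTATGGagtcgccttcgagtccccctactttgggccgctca
The box began 73 bases before the start in Acta1, 31 and 96 in Fhl2 and 155 in Igf2. A match describes the letters only.

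Annexins, proteins that bind membrane lipids with calcium, and their S100 partners fell in 10 of 15 measured genes (66.7%, beside 32.7% of all named genes). None rose, and the median log2 difference was -0.56. Anxa3 read -2.65, -2.57 and -2.63 in EB5, -5.38, -5.35 and -5.32 in HP3 and between -4.08 and -4.03 in RKPG9. HP3 was thus lowest of these 3 lines, at -2.73 ± 0.05 from EB5 (adjusted p = 5.3e-11) and -1.29 from RKPG9 (adjusted p = 1.8e-08). HP4, the other Rex1-/- line, was close to HP3, with an average of -5.13. Anxa1 fell by 1.74 (from between -3.03 and -2.92 to between -4.79 and -4.66), Anxa5 by 1.05 and Anxa2 by 1.01. Anxa5 stood at -0.99 without HP3 replicate 2, and Anxa2 at -0.98 without EB5 replicate 2 and -0.99 without HP3 replicate 2, below 2-fold.

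S100a6, which encodes calcyclin, gave -3.15, -3.05 and -3.18 in EB5, -4.66, -4.65 and -4.80 in HP3, and -2.94, -3.03 and -3.09 in RKPG9. HP3 was low against both, by -1.58 from EB5 and -1.68 from RKPG9 (adjusted p = 4.9e-08 and 3e-08), while HP4 averaged -4.42. Its reference spots were saturated, which limits the ratio. S100a10, the partner of Anxa2, fell by 0.78. Lgals1, the galectin that binds cell-surface sugars, read -3.15, -3.04 and -3.21 in EB5 and -4.34, -4.21 and -4.42 in HP3, a fall of 1.19 (adjusted p = 1.1e-07), with 1 saturated HP3 reference spot.

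Of 41 genes of the extracellular matrix, integrins and matrix proteases, 19 fell (46.3%) and 2 rose (4.9%), beside 32.7% and 11.1% of all named genes. The median was -0.17, and the Cy3 channel alone gave 12 lower and 8 higher. From that channel 13.0% of all named genes were lower and 16.7% higher. Thbs1, the matrix protein thrombospondin 1, had 1 usable EB5 spot, at -1.14, and read -3.04, -3.37 and -3.08 in HP3. The fitted fall of 2.02 ± 0.12 (adjusted p = 5.8e-06) rests on that spot, and the other Thbs1 probe fell by 0.14 only. Tfpi, an inhibitor of coagulation, read 2.61, 2.62 and 2.62 in EB5 and 1.11, 1.25 and 1.26 in HP3, a fall of 1.41 ± 0.07 (adjusted p = 1.9e-07), with its other 3 probes falling by 0.25 to 0.82. F3, the tissue factor that Tfpi acts against, fell by 0.95 to a level that was 0.61 above RKPG9. The protease gene Prss23 fell by 1.19, with 1 of 3 HP3 spots well above background. Itga3, an integrin subunit, fell by 0.92, whereas Lama1, a laminin chain of basement membrane, rose by 0.47.

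Growth factors and their receptors fell in 23 of 38 measured genes (60.5%, beside 32.7% of all named genes) and rose in 2 (5.3%, beside 11.1%). Their median was -0.20, and 15 were lower from the Cy3 channel alone. Igf2, an imprinted growth factor, read 0.31, 0.20 and 0.24 in EB5 and -1.19, -1.26 and -1.24 in HP3. Its fall of 1.48 ± 0.04 (adjusted p = 1.3e-09) placed every HP3 array below RKPG9 too, by 0.90 on average, while HP4 averaged -1.11. Only 1 of 3 HP3 spots was well above background, and another Igf2 probe differed by 0.07 (adjusted p = 0.47). Igfbp3, which binds insulin-like growth factors, read 1.71, 1.79 and 1.88 in EB5 and 0.65, 0.78 and 0.75 in HP3, a fall of 1.07 ± 0.06 (adjusted p = 2.5e-07). Hbegf, an EGF receptor ligand, fell by 0.97, and Efna5, an ephrin, by 0.87. The receptor gene Igf1r rose by 0.82 and the ligand gene Pdgfc by 0.70.

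Other genes that fell by more than 2-fold did not belong to these groups. Rhox5, an X-linked reproductive homeobox gene, read 2.96 and 2.91 on the usable EB5 arrays, 1.27, 1.27 and 1.34 in HP3 and between 0.51 and 0.56 in RKPG9. It was thus 1.65 lower in HP3 than in EB5 (adjusted p = 1.3e-09) and 0.77 higher than in RKPG9 (adjusted p = 8.5e-08). Rhox6, its neighbour in the family, read 2.99, 2.89 and 2.96 in EB5 and 1.63, 1.89 and 1.85 in HP3, and fell by 1.16 against EB5 and by 0.92 against RKPG9. Among 8 germ cell, early-embryo and Rhox genes 3 fell (37.5%, beside 32.7% of all named genes) and 2 rose (median 0.01). Over all named genes 11.1% rose. The members of this list that rose were Sycp3, of the meiotic chromosome axis (0.91), and Dazl, a germ cell RNA-binding protein (0.29).

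Prtg, the gene of the cell-surface protein protogenin, read 2.21, 2.32 and 2.29 in EB5 and 0.72, 0.87 and 0.82 in HP3, a fall of 1.47 ± 0.06 (adjusted p = 3.6e-08). Its second probe was not well above background in HP3 and was at least 1.67-fold lower there (adjusted p = 2.1e-07). Slc25a20, the mitochondrial carnitine carrier, went from 1.81, 1.75 and 1.77 to 0.33, 0.28 and 0.39, a fall of 1.45 ± 0.04, and lay 0.67 below RKPG9. The kinase gene Nuak1 read 0.49, 0.49 and 0.47 in EB5 and -0.88, -0.99 and -0.99 in HP3, a fall of 1.44, and lay 0.71 below RKPG9. For Nuak1, HP4 averaged -0.92, and the symbol came from the authors' list of genes that fell. All HP3 arrays were below all EB5 arrays in these genes, as the rule that named them required. The autophagy receptor gene Calcoco2 fell by 1.09 and the lipid droplet gene Plin2 by 1.07, while a second Calcoco2 probe did not pass (-0.15, adjusted p = 0.10).

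The 3 named genes that rose by more than 2-fold were Gfpt2, Meg3 and Snhg14. Gfpt2, an enzyme that opens hexosamine synthesis, read 1.55, 1.43 and 1.54 in EB5, 2.99, 3.10 and 2.96 in HP3 and 3.15, 3.15 and 3.20 in RKPG9. It rose by 1.51 ± 0.09 (adjusted p = 3.1e-07), and HP3 did not pass against RKPG9 (-0.15, adjusted p = 0.27). Gfpt1, of the same enzyme family, fell by 0.30 (adjusted p = 0.049), with 1 of 3 HP3 spots well above background. Of 20 genes of glycolysis and hexosamine synthesis 3 rose (15.0%) and 9 fell (45.0%), beside 11.1% and 32.7% of all named genes. Their median was -0.08. The Cy3 channel alone gave 5 lower and a median of 0.01.

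Meg3, a maternally expressed imprinted RNA, read 2.18, 2.17 and 2.21 in EB5, 3.29, 3.22 and 3.45 in HP3 and 2.40, 2.37 and 2.49 in RKPG9. HP3 was above both lines, by 1.14 ± 0.07 (adjusted p = 7.2e-07) and by 0.90 (adjusted p = 2.9e-06), while HP4 averaged 3.05. The other Meg3 probes differed from EB5 by 0.27 (adjusted p = 0.11), 0.71 and 0.79. Snhg14, the long RNA of the Snrpn imprinted domain, read 3.70, 3.50 and 3.58 in EB5 and 4.48, 4.69 and 4.73 in HP3, 1.04 ± 0.07 higher (adjusted p = 1.4e-06). It was also 0.80 above RKPG9, stood at 0.99 without EB5 replicate 2 or HP3 replicate 3, and its second probe did not pass (0.16, adjusted p = 0.37). Among 19 imprinted genes 4 rose (21.1%) and 6 fell (31.6%), beside 11.1% and 32.7% of all named genes. Mest, expressed from the paternal allele, rose by 0.95, and the transporter gene Slc38a4 fell by 0.95. The median was 0.05 and turned negative from the Cy3 channel alone (-0.09), under median centring (-0.08) and where no background was subtracted (-0.04).

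**Figure D4:**
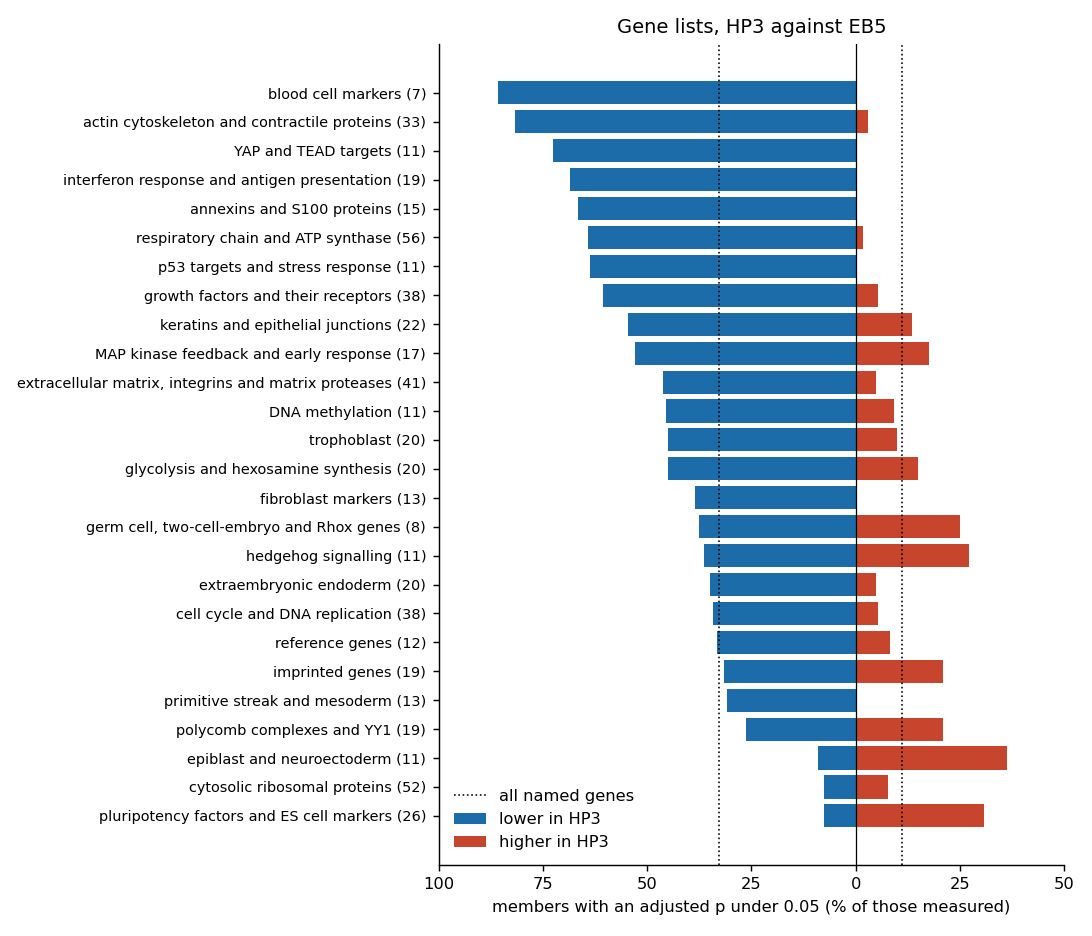
Share of the measured members of each gene list that were lower (blue, to the left) or higher (red, to the right) in HP3 than in EB5 at an adjusted p under 0.05, in percent, with the number measured in parentheses. Dotted lines mark the shares over all named genes, 32.7% lower and 11.1% higher. Of lists written with earlier results of these data known, the actin list reaches 81.8% lower and the pluripotency list 30.8% higher.

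Pluripotency genes were measured for 26 members, of which 8 rose (30.8%) and 2 fell (7.7%), beside 11.1% and 32.7% of all named genes. No change was over 2-fold, and 16 members missed the threshold. Their median log2 difference was 0.13, and it stayed positive in each alternative, down to 0.02 with median centring. The counts moved, as did the shares over all named genes. Median centring gave 4 higher and 3 lower, beside 4.94% and 47.9% of all named genes. The Cy3 channel alone gave 7 higher and 4 lower, beside 16.7% and 13.0%. Pou5f1, the gene of Oct3/4, had 1 usable EB5 spot at 4.12 and read 4.62, 4.44 and 4.21 in HP3, a difference of 0.30 that did not pass (adjusted p = 0.11). Nanog read 2.26, 2.00 and 1.97 in EB5 and 2.36, 2.51 and 2.43 in HP3, higher by 0.36 ± 0.07 (adjusted p = 0.0028), and turned to -0.26 (adjusted p = 0.062) from the Cy3 channel alone. Klf4 and Myc did not pass, at -0.09 (adjusted p = 0.14) and -0.06 (adjusted p = 0.15). Sox2 had no named probe.

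Tcl1, a co-activator of Akt kinase, read 3.61, 3.56 and 3.57 in EB5 and 4.59, 4.38 and 4.26 in HP3, a rise of 0.83 ± 0.10 (adjusted p = 0.00013), and lay 0.41 below RKPG9. Mybl2, a cell cycle transcription factor, rose by 0.53 but stood at -0.01 from the Cy3 channel alone. The member with the deepest fall was Dppa3, a maternal factor that guards DNA methylation, at 4.61, 4.73 and 4.69 in EB5 and 3.89, 4.26 and 4.24 in HP3. It fell by 0.55 ± 0.14 (adjusted p = 0.012), a call not reached with a normexp offset of 0, with the processed signals or in the authors' table.

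Otx2, a transcription factor of the epiblast and forebrain, read 3.42, 3.25 and 3.00 in EB5 and 4.14, 4.20 and 4.14 in HP3. It rose by 0.94 ± 0.08 (adjusted p = 9.8e-06) and was 0.70 above RKPG9. The list of 11 epiblast and neuroectoderm genes had 4 that rose (36.4%) and 1 that fell (9.1%), beside 11.1% and 32.7% of all named genes. Its median was 0.16, and 2 rose without EB5 replicate 2. Median centring gave 1 higher and 2 lower, and unsubtracted signals 3 of each. Over all named genes, unsubtracted signals gave 9.95% higher and 26.0% lower. Dnmt3b, the de novo DNA methyltransferase of the epiblast, rose by 0.36 (adjusted p = 0.016), lost without EB5 replicate 2 or HP3 replicate 1, and stood 1.10 above RKPG9. Pou3f1, a POU factor of the epiblast, passed at 0.31 (adjusted p = 0.048) with overlapping arrays, and the call was lost in 5 of the 6 fits with 1 array left out. Cdh2, which encodes N-cadherin, fell by 0.36.

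Markers of primitive streak and mesoderm fell in 4 of 13 measured genes (30.8%, close to the 32.7% of all named genes) and none rose (median -0.09), with Snai2, a repressor of epithelial genes, at -0.67. Of the other 3, Lhx1 was not well above background in either line and Gsc was not so in HP3, and the mesoderm gene T fell by 0.19. The extraembryonic endoderm list had 7 that fell (again close to that share) and 1 that rose among 20 (median -0.00). Without EB5 replicate 3 or HP3 replicate 1, 4 fell, and the Cy3 channel alone gave 3 lower and 2 higher. Sparc, a matrix protein made in parietal endoderm and also in many other cells, read -2.20, -2.21 and -2.26 in EB5 and -3.08, -3.15 and -3.12 in HP3, a fall of 0.89 ± 0.04 (adjusted p = 4.9e-08). Col4a1 and Col4a2, chains of basement membrane collagen, fell by 0.48 and 0.53. The transcription factors that define this lineage did not pass: Gata6 differed by -0.00 and Sox7 by -0.01, and Gata4 was not well above background in HP3. Afp missed the threshold at -0.16 (adjusted p = 0.05), Dab2 fell by 0.22 (adjusted p = 0.039, lost with any one array left out), Plat fell by 0.30, and Ttr was not well above background in HP3. The other Plat probe did not pass (0.13, adjusted p = 0.37).

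Among 20 trophoblast genes 9 fell (45.0%) and 2 rose (10.0%), beside 32.7% and 11.1% of all named genes (median -0.08). Krt19, whose probes disagreed, again counted as a rise through its brightest probe. The falls were led by Krt8, Krt18 and Krt7, and the trophoblast transcription factors Gata3, Gata2 and Cdx2 fell by 0.63, 0.42 and 0.23. Fibroblast markers fell in 5 of 13 measured genes (38.5%, beside 32.7% of all named genes), including Dcn (-0.41) and Col1a2 (-0.30), and in 2 or 3 without EB5 replicate 1, EB5 replicate 2, HP3 replicate 2 or HP3 replicate 3. From the Cy3 channel alone and from unsubtracted signals 1 of the 13 was lower, with medians of -0.06 and -0.02. Their array medians were -1.12 to -0.81 in EB5 and -1.28 to -1.03 in HP3. Blood cell markers fell in 6 of 7 (85.7%, beside 32.7% of all named genes), led by Cd53 (-0.67) and Lcp1 (-0.54). They fell in 2 without EB5 replicate 2, in 3 without HP3 replicate 3, in 3 from the Cy3 channel alone and in 2 from unsubtracted signals. Their array medians were -1.94 to -1.79 in EB5 and -2.19 to -1.86 in HP3, with all 7 well above background. No fibroblast or blood marker of these lists rose, and the part of such cells in the falls of actin, matrix and interferon genes was not tested. In RNA of whole cultures, fewer cells of a type and less RNA per cell cannot be told apart.

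Hedgehog signalling runs from Ptch1, the receptor that is itself a target, through Smo to Gli factors, with Gli1 and Hhip as further targets. Gli1 read 2.22, 2.13 and 2.15 in EB5, 3.11, 3.25 and 3.10 in HP3 and 3.98, 3.94 and 4.03 in RKPG9. Ptch1 read 1.76, 1.75 and 1.77 in EB5, 2.59, 2.66 and 2.64 in HP3 and 3.37, 3.38 and 3.34 in RKPG9. HP3 therefore stood between EB5 and RKPG9 in both, 0.98 and 0.87 above EB5 (adjusted p = 7.3e-07 and 2.6e-08) and 0.84 and 0.73 below RKPG9 (adjusted p = 1.7e-06 and 7.7e-08). Hhip, an antagonist that binds hedgehog ligands, rose by 0.39 against EB5 and was 1.20 below RKPG9. It lies on chromosome 8, where the median of 350 genes was 0.29 lower in HP3 than in RKPG9. Of 11 measured genes of the pathway 3 rose (27.3%) and 4 fell (36.4%), beside 11.1% and 32.7% of all named genes (median -0.07). Gli1 had its symbol only from the authors' list of genes that rose, so that its place in this count is no independent support. The number that fell was 1 or 2 without EB5 replicate 1, EB5 replicate 2, EB5 replicate 3, HP3 replicate 1 or HP3 replicate 3, and 0 from unsubtracted signals.

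**Figure D5:**
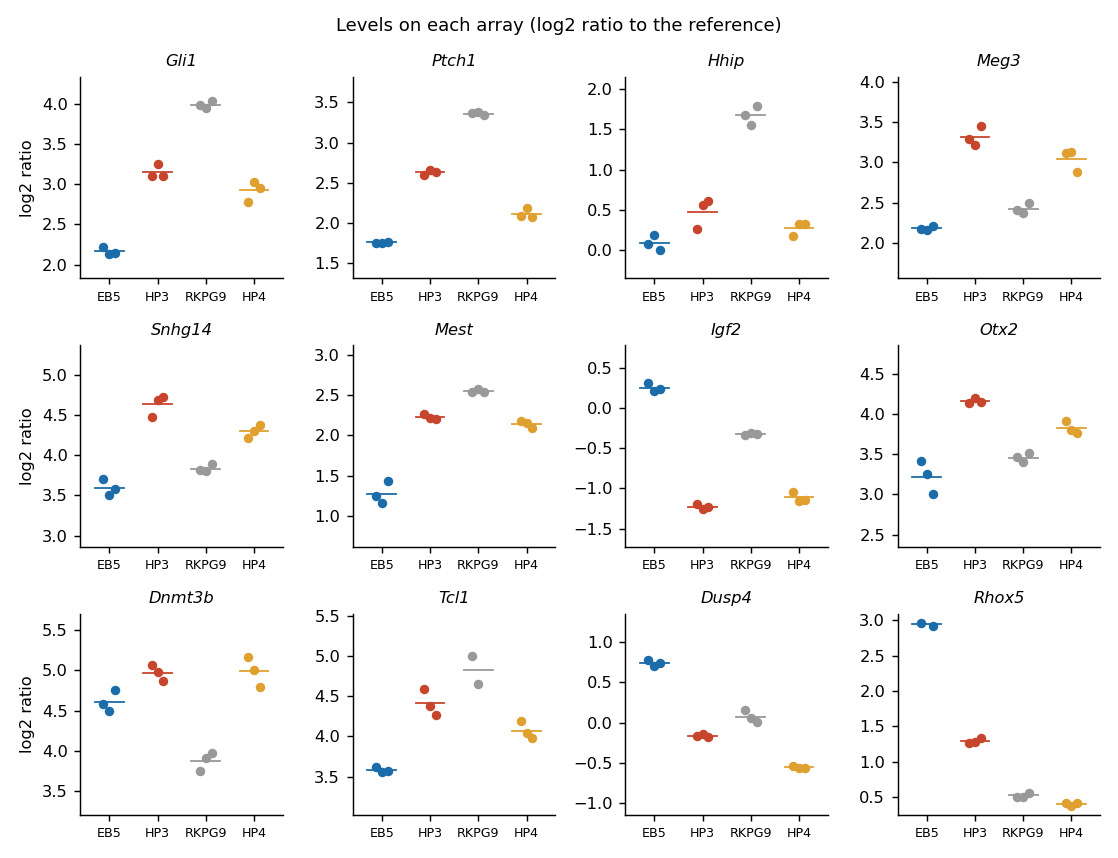
Log2 ratio to the reference on each usable array (points) with the line mean (bars) for 12 genes in EB5, HP3, RKPG9 and HP4; each vertical axis has its own range. Gli1, Ptch1 and Tcl1 were highest in RKPG9 with HP3 between it and EB5, Meg3, Snhg14 and Otx2 were highest in HP3, and Rhox5 was highest in EB5.

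Feedback genes of the MAP kinase pathway and early response genes fell in 9 of 17 (52.9%) and rose in 3 (17.6%), with a median of -0.12. Over all named genes 32.7% fell and 11.1% rose. From the Cy3 channel alone and from unsubtracted signals alike 5 of the 17 were lower. Dusp4, a nuclear MAP kinase phosphatase, read 0.77, 0.70 and 0.74 in EB5 and -0.16, -0.15 and -0.19 in HP3, a fall of 0.90 ± 0.04 (adjusted p = 4.8e-08). The phosphatase genes Dusp14 and Dusp6 fell by 0.74 and 0.66 and the stress factor Atf3 by 0.70. The rises were Egr1, an early response factor (0.61), Etv5, an ETS factor (0.42), and Spry4, a feedback inhibitor (0.29). Targets of YAP and TEAD fell in 8 of 11 (72.7%, beside 32.7% of all named genes), and none rose (median -0.36). From the Cy3 channel alone 4 were lower, with a median of -0.19. Besides F3 the falls included Amotl1, Amot and Amotl2, YAP-binding scaffold genes, at -0.76, -0.57 and -0.39.

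Interferon response genes, with those that present antigens, fell in 13 of 19 (68.4%, beside 32.7% of all named genes) and none rose (median -0.30). Psmb8 and Psmb10, subunits of the immunoproteasome, fell by 0.94 and 0.73, and the interferon-induced GTPase genes Gbp3 and Gbp2 by 0.85 and 0.77. The other Gbp3 probe did not pass (-0.12, adjusted p = 0.18). Psmb8 was 0.42 higher in HP3 than in RKPG9. From the Cy3 channel alone 7 of these 19 were lower, with a median of -0.07, and 13.0% of all named genes were lower there. Targets of p53 and stress genes fell in 7 of 11 (63.6%, beside the same 32.7%) and none rose (median -0.18). Cdkn1a, the cell cycle inhibitor p21, fell by 0.49 but stood at 0.01 from the Cy3 channel alone, and Nqo1, a quinone reductase, fell by 0.56.

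Polycomb genes were measured for 19 members, of which 4 rose (21.1%) and 5 fell (26.3%), with a median of -0.01. Over all named genes 11.1% rose and 32.7% fell. The polycomb counts became 6 higher and 2 lower from the Cy3 channel alone and 1 higher and 6 lower with median centring. Phc1, a subunit of the PRC1 complex, rose by 0.59, and Jarid2, a partner of the PRC2 complex, by 0.32, while Phc2 fell by 0.51. Of the core PRC2 genes, Eed differed by 0.05 (adjusted p = 0.31) and Suz12 fell by 0.18 (adjusted p = 0.0074). Yy1, the relative of Rex1, differed by -0.01 (adjusted p = 0.83) at its brightest probe and rose by 0.17 (adjusted p = 0.043) at the other. Suz12 lost its fall from the Cy3 channel alone (0.01), and Yy1 there was higher by 0.29. Of 11 DNA methylation genes 5 fell (45.5%, beside 32.7% of all named genes), such as Mbd1 (-0.31), and Dnmt3b rose (median 0.03). But from the Cy3 channel alone 3 were higher and 0 lower. The other Mbd1 probe did not pass (-0.12, adjusted p = 0.27).

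Counts for housekeeping groups differed between the settings. Respiratory chain and ATP synthase genes fell in 36 of 56 (64.3%, beside 32.7% of all named genes) and rose in 1 (median -0.16). The largest falls were Ndufa12 (-0.42, from 1 usable EB5 spot) and Ndufa8 (-0.34), yet the Cy3 channel alone gave 5 lower, 4 higher and a median of 0.01. Processed signals gave 35 lower, an offset of 0 gave 33, unsubtracted signals 36 and median centring 51. Of 38 cell cycle and replication genes 13 fell (34.2%, close to the share of all named genes) and 2 rose (median -0.06), with the cyclin gene Ccnd2 at -0.81 and the inhibitor gene Cdkn2b at -0.66. The Cy3 channel alone gave 1 lower and 5 higher with a median of 0.06, and median centring 22 lower and 0 higher. Over all named genes median centring gave 47.9% lower and 4.94% higher. The other Ccnd2 probes stood at -0.66, -0.46 and -0.02. Of 52 ribosomal protein genes 4 fell and 4 rose (7.7% each, beside 32.7% and 11.1% of all named genes), with a median of -0.04. Median centring gave 22 lower and 1 higher. Among 12 reference genes 4 fell (33.3%, close to the share of all named genes) and 1 rose. Their median was -0.06, and 8 were lower with median centring. Hprt, at -0.41, turned to 0.02 from the Cy3 channel alone.

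Between 92.24 and 94.45% of Cy3 spots were well above background on the EB5 arrays and between 87.14 and 89.36% on the HP3 arrays, and 285 to 545 outlier spots were left out per EB5 array against 57 to 104 per HP3 array. These flags were set under different software settings for EB5 and HP3, so that the numbers do not compare array quality. EB5 values with spots left out also rest on these flags. Arrays of one line correlated over all probes at 0.984 to 0.986 in EB5 and 0.989 to 0.991 in HP3. The 5 ES cell markers with a named probe were well above background on every array of both lines.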

How the data were processed

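The study hybridised 12 arrays of NIA design, 3 for each of 4 ES cell lines, and HP3 was compared with EB5. The deposited intensities are mean spot and median local background brightness, read by the authors with Agilent Feature Extraction 7.5.1 and not subtracted. The authors also deposited log10 levels per array, which equalled a constant per probe minus the log10 ratio of the scanner files for 93.82 to 95.9% of values within 0.01, with column medians of 2.87 to 2.88. The authors analysed the arrays with NIA Array Analysis Software. Their tables of genes that differed between HP3 and EB5 were used only to name 11 probes, among them those of Gli1, Efna5 and Nuak1. These probes have a symbol because the authors had listed their genes as changed on these same arrays. Their places among the named genes and in the list counts are thus no independent support.

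Intensities were corrected by normexp (offset 50) and normalized by loess within arrays, outlier spots were left out, and log2 ratios (Cy3 over Cy5) of all 12 arrays were fitted together in R 4.3.3 with limma 3.58.1, after reading by data.table (1.17.8), with 8 residual and 3.33 prior degrees of freedom. P-values were adjusted by Benjamini-Hochberg over 20235 probes. Another 45 probes lacked usable spots in one line. Probes dim on all arrays of a line are given as bounds: the mean of the other line was set against the dim line's mean, taking on each array the higher of the probe's own signal and the lowest one well above background. The number of arrays limits the precision.

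Of 20280 gene probes 9197 had a symbol, of 7133 genes, through a table of GRCm38.p6 genes: 4360 current, 4132 older, 131 by description, 7 by accession, 11 by gene cluster and 556 kept as in the files. The brightest probe stood for a gene in lists. The named genes were those with a called probe and arrays apart, from each list the passing members with the largest changes (at most 4), Zfp42, and ES cell genes of the paper. Other list members named beside these (Dsp, Cdh3, Myh9, S100a10, Gfpt1, Gata2, Cdx2 and Amotl2 among them) were picked after their values were seen. Single values of 3 genes are not reported here, though list counts include them. The genes and lists were chosen with earlier results of these data known. Promoters were searched on both strands in Python 3.11.15 (numpy 2.4.6, pandas 2.3.3, with matplotlib 3.10.9 for plots). The contrast with HP4 was added after the data were seen. The scripts were tested on simulated data.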

Additional observations from a re-analysis of the deposited data

How the results depend on the processing

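Besides leaving out 1 array at a time and a block for array numbers, 10 other settings were tried: processed signals of the image software, the authors' table, a normexp offset of 0, unsubtracted signals, median centring instead of loess, Aquantile scaling, the Cy3 channel alone, outlier spots retained, dim probes dropped, and a fit to just the 6 arrays. Probes past both thresholds, 7 higher and 37 lower, became 323 and 301 in the authors' table, 153 and 460 with processed signals, 99 and 182 at offset 0, 4 and 60 under median centring, and 1 and 14 from unsubtracted signals. With 1 array left out they were 6 to 13 higher and 35 to 39 lower. Aquantile scaling leaves the fitted log ratios as they are, so that it could not change a call. In every setting the called probes that could be fitted kept their direction at an adjusted p under 0.05; Thbs1 could not be fitted without EB5 replicate 1. Of the 37 lower probes 35 were called again at offset 0, 33 with processed signals, 24 from the Cy3 channel alone and 13 from unsubtracted signals.

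Array numbers did not pair the lines, since arrays of the same number had deviations correlated at 0.07, -0.18 and 0.08. The fit with the replicate block called 7 and 37 probes, and of the named genes' differences from EB5 it changed 1 call, Afp, which then passed.

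From the Cy3 channel alone, these log2 differences of HP3 minus EB5 changed sign: Cdkn1a 0.0056, Col1a2 0.064, Hprt 0.023, Mybl2 -0.011, Nanog -0.26, Ndufb7 0.048, Rpl10 0.10, Sdha 0.11, Suz12 0.0082, Yy1 0.29 and Zfp42 -0.63. Of 120 differences, 70 kept their direction and side of the threshold there. Zfp42 was -0.32 from unsubtracted signals. In the authors' table Lhx1, not above background in either line, was 3.78, and Sycp3 was -1.70 for HP3 minus RKPG9. The cause of these shifts was not tested.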

Other observations

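Values of HP3 against RKPG9 were not spread evenly over the chromosomes, a pattern noticed after the values were seen. On chromosome 8, which holds Zfp42, the median log2 difference of HP3 minus RKPG9 was -0.29 over 350 genes, of which 292 (83.4%) were below RKPG9, 226 of them and 18 others passing the test as lower and higher. Over the 6316 genes of the other chromosomes the median was 0.015 and 45.3% were below RKPG9. Cut into 4 stretches of 87 or 88 genes in gene order, chromosome 8 had medians of -0.31, -0.27, -0.25 and -0.32. The same genes had medians of -0.01 for HP3 minus HP4 and -0.09 for HP3 minus EB5. Acta1, Dusp4, Hhip, Nqo1, Col4a1 and Col4a2 lie on this chromosome.

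Probes without a symbol made up 10 of the 44 that passed both thresholds. The lowest, A_65_P17698, read 4.37, 4.41 and 4.22 in EB5 and 2.18, 2.42 and 2.42 in HP3, a fall of 2.00 ± 0.10 (SE, adjusted p = 1.3e-07). A_65_P15641 read 2.75, 2.65 and 2.85 in EB5 and 3.83, 3.88 and 3.75 in HP3, a rise of 1.07 ± 0.06 (adjusted p = 4.7e-07). A_65_P14464 fell by 1.01 against EB5 and stood 1.66 below RKPG9 on average.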
